A study of Mus musculus with 15 samples.

Results

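Tra2a, Tra2b, Srsf2, Srsf3, Srsf5, Srsf6, Srsf7, Srsf9 and Tial1 are genes for splicing regulators, and their RNA was followed through single-cell transcriptomes of whole mouse hearts at E14.5, a stage of embryonic development at which the valves are being remodelled. These 9 genes, of the 16809 genes in the table of unique molecular identifiers (UMIs), were chosen for their levels by cell class, their co-variation across libraries and their differences between the groups. Those values are therefore descriptions. Where it is said that a member was called, this places it among all genes of the fit and is no test of the member. The 127 other splicing genes from 8 lists were also put through the test. Those lists, too, were chosen with earlier results of these data known, so their shares are no independent evidence. The hearts came from 7 wild-type (WT) libraries, Adamts19+/+, and 8 libraries of homozygous knockouts (KO), Adamts19-/-, all on the C57BL6/N background and made by Drop-seq, which tags the polyadenylated RNA of each cell on a barcoded bead. Adamts19 encodes a secreted metalloprotease, and the series title names heart valve disease as the subject. The tm4a allele was carried by KO replicates 1 to 4, of which replicate 1 was a litter of its own, and the tm4b allele by KO replicates 5 to 8, all littermates. The WT libraries fell into 4 further litters, made up of replicates 1 and 2, of 3 and 4, of 5, and of 6 and 7. Genotype and litter cannot be told apart, and neither can allele and litter. WT replicate 5 was the single WT library on the flow cell of the 8 KO libraries. The deleted segment of Adamts19 and the number of embryos behind a library are not stated in the sources used here, so the p-values below measure the spread between libraries.

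SR proteins bind RNA through an RNA recognition motif and recruit the splicing machinery through a tail rich in arginine and serine (RS). They mostly bind exonic enhancers and promote the inclusion of the bound exon. TRA2 proteins are SR-like activators with an RS tail on either side of the recognition motif. Tial1 (TIAR) has RNA recognition motifs and no RS tail, binds U-rich RNA next to weak splice donors and AU-rich elements of mRNAs, and enters stress granules. Many of these genes hold their own level in check through poison exons, whose inclusion sends the transcript to nonsense-mediated decay.

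Kept cells numbered 50775, with 5373330 to 11198676 UMIs in a library. The level of the targeted gene Adamts19 was 15.8 to 49.9 UMIs per 1000000 UMIs of the library (CPM) in WT and 5.28 to 8.60 CPM in KO libraries. LacZ, counted as a feature of its own, had 0 UMIs in the 7 WT libraries and 5.40 to 91.6 CPM in KO libraries. The median number of UMIs per kept cell was 1328 to 2089 in WT and 1350.5 to 1892 in KO libraries. Genes of the immediate early and heat shock lists took 0.490% to 0.814% of UMIs in WT and 0.719% to 1.12% in KO libraries, and their part in the results below was not tested. WT replicate 4 stood apart with 5.78% haemoglobin UMIs, against 0.0873% to 1.69% in the other 14 libraries, and 21.0% of its cells lay in unnamed clusters. Of 55053 distinct barcode sequences, 87 occurred in more than 1 library, and no pair of libraries shared more than 9. Of the classes named from markers, 9 with 45268 cells are compared here. Erythroid-like cells (436), neural crest, glial or neuronal-like cells (277) and other leukocyte or platelet-like cells (155) were left out. Among the leading genes were Myl2 or Myl7 in the cardiomyocyte-like clusters other than the mitotic one (led by Rrm2 and Esco2), Npr3 and Emcn in endocardial-like clusters, and Cthrc1 and Postn in the valve interstitial-like cluster. Because UMIs come from the 3′ end and are not scaled to transcript length, levels are compared between cells or libraries for a given gene, never between genes.

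The genome annotation places the members on chromosomes 2, 5, 6, 7, 11, 12, 16 and 17 of mm10. Tra2a lies at chr6:49243924-49264033 on the minus strand with 8 exons in its longest coding transcript, and Tial1 at chr7:128439777-128461717 on the minus strand with 12. Srsf9 lies at chr5:115327177-115333080 on the plus strand with 4 exons and Srsf7 at chr17:80200080-80207307 on the minus strand with 8. Srsf2, at chr11:116849901-116853094 on the minus strand, overlaps the plus-strand gene Mettl23 in its last exon. The use of strand in counting is not stated in the sources used here, so Srsf2 values are uncertain. Tra2b has a named pseudogene, Tra2b-ps, with which it may share reads. Transcripts marked as targets of nonsense-mediated decay were annotated for 9 of the 9 members, against 26.6% of the 14229 protein-coding genes of the table. UMI counts per gene cannot separate those transcripts from the coding ones.

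The bases upstream of 5 members are shown because these genes kept company across libraries: Tra2a with Tial1, and Srsf2 with Srsf9, against Srsf7. The sequences are from RefSeq (GRCm38.p6), 5′ to 3′ on the gene's strand, and end just before the RefSeq start (the first of the listed starts of Tial1) or, for Tial1 and Srsf7, where the mm10 gene model begins. Capitals mark matches on either strand to the motifs searched. These were the cAMP response element (CRE, TGACGTCA), the ETS motif (CCGGAAGT), the CCAAT box (CCAAT), the GC box (GGGCGG), the TATA box (TATAAA), the heat shock element (GAANNTTC) and the YY1 motif (AAGATGGC).
Tra2a (chr6:49264053-49264302, minus strand): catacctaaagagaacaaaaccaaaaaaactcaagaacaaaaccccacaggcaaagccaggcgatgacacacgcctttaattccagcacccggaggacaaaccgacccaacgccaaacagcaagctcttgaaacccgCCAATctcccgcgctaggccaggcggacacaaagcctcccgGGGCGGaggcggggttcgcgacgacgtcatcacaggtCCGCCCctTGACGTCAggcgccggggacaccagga
Tial1 (chr7:128461718-128461923, minus strand): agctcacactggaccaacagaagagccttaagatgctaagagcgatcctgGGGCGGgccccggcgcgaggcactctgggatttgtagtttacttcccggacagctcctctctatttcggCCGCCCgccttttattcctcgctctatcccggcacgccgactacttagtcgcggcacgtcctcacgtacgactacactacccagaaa
Srsf2 (chr11:116853095-116853344, minus strand): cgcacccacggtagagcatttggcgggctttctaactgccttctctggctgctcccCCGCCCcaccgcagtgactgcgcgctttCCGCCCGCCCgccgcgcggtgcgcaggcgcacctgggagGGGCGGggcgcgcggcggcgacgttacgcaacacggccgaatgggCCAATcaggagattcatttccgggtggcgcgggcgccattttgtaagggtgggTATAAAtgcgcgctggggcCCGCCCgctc
Srsf9 (chr5:115326927-115327176, plus strand): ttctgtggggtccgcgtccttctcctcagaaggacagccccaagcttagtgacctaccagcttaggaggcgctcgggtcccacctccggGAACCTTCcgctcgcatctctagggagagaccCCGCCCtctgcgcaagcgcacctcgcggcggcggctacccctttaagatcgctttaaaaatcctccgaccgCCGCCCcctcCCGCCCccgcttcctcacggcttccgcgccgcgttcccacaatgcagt
Srsf7 (chr17:80207308-80207555, minus strand): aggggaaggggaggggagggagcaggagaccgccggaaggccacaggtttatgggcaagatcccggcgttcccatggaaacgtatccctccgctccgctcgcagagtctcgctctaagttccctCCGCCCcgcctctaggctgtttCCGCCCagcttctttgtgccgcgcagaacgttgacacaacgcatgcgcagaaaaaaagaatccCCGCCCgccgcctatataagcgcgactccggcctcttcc
All 9 members matched a RefSeq window. In the 250 bases before the start, a GC box was found in 8 of 9 members, against 32.7% of 32851 windows of the same length. The CRE was found only in Tra2a among the members, 27 bases before the start, against 1.55% of windows. A CCAAT box was found in 3 of 9 members, Tra2a, Srsf2 and Srsf3, against 33.8% of windows. The TATA box was found in 2 members (12.4% of windows), the heat shock element in 2 (6.69%), the ETS motif in 1 (2.88%), and the YY1 motif in 0 (1.56%). The members' median GC content in these windows was 61.2%, against 52.4% over all windows. A match describes letters in the window and shows no binding.

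KO and WT libraries were compared first, over all kept cells. Tra2a, an activator of exon inclusion, stood highest in the comparison. Its level in WT libraries was 103 CPM at the lowest, 144 at the median and 208 at the highest. The 4 tm4a libraries had 189, 211, 200.1 and 228 CPM, and the 4 tm4b libraries 259.9, 269, 262 and 272 CPM. The mean was 148 ± 36.2 CPM in WT (SD, n = 7) and 236 ± 33.5 in KO libraries (n = 8). The groups overlapped through WT replicate 3, at 208 CPM, which lay above 2 of the 8 KO libraries. The log2 fold change of KO over WT, scaled by TMM factors (trimmed mean of M-values), was 0.66 with a standard error (SE) of 0.12. In such sums over cells, fewer cells of a type and less RNA per cell cannot be told apart.

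Tial1 followed the same course. WT libraries had 111 CPM at the lowest, 139 at the median and 206 at the highest, again in replicate 3. The tm4a libraries had 179, 184, 181 and 228 CPM and the tm4b libraries 217, 218, 256 and 258 CPM. The log2 fold change was 0.51 (SE 0.11), and 5 of 8 KO libraries lay above every WT library.

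Srsf3 encodes the smallest protein of the SR family, which is also an adaptor for mRNA export. WT libraries had 302 to 403 CPM with a median of 383. The tm4a libraries had 518, 487, 516 and 356 CPM and the tm4b libraries 489, 526, 463 and 414 CPM. KO replicate 4, at 356 CPM, was the single KO library within the WT range, and the log2 fold change was 0.34 (SE 0.10). Srsf2 (SC35), a classical SR protein, had 85.2 to 209 CPM in WT and 123 to 206 CPM in KO libraries, so the KO values lay within the WT range, with a log2 fold change of 0.39 (SE 0.16). Srsf5 was steady in WT, at 256 to 283 CPM, and wider in KO libraries, at 239 to 336 CPM, with a log2 fold change of 0.12 (SE 0.10). Tra2b, the paralogue of Tra2a, had 253 to 353 CPM in WT and 261 to 419 in KO libraries (0.16, SE 0.12), and Srsf7 had 136 to 191 CPM in WT and 153 to 225 in KO libraries (0.11, SE 0.13). Srsf9, an SR protein with a short RS tail, had 17.6 to 50.3 CPM in WT and 20.2 to 60.8 CPM in KO libraries (0.24, SE 0.25). Srsf6 was the member with a log2 fold change below 0, at -0.29 (SE 0.16), with 91.7 to 206 CPM in WT and 62.2 to 163 CPM in KO libraries. Its mean was 140 ± 39.1 CPM in WT, 92.1 ± 23.6 in tm4a and 141 ± 14.6 in tm4b libraries (SD). The lower KO mean thus came from the tm4a libraries, while the tm4b mean lay near that of WT.

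**Figure D1:**
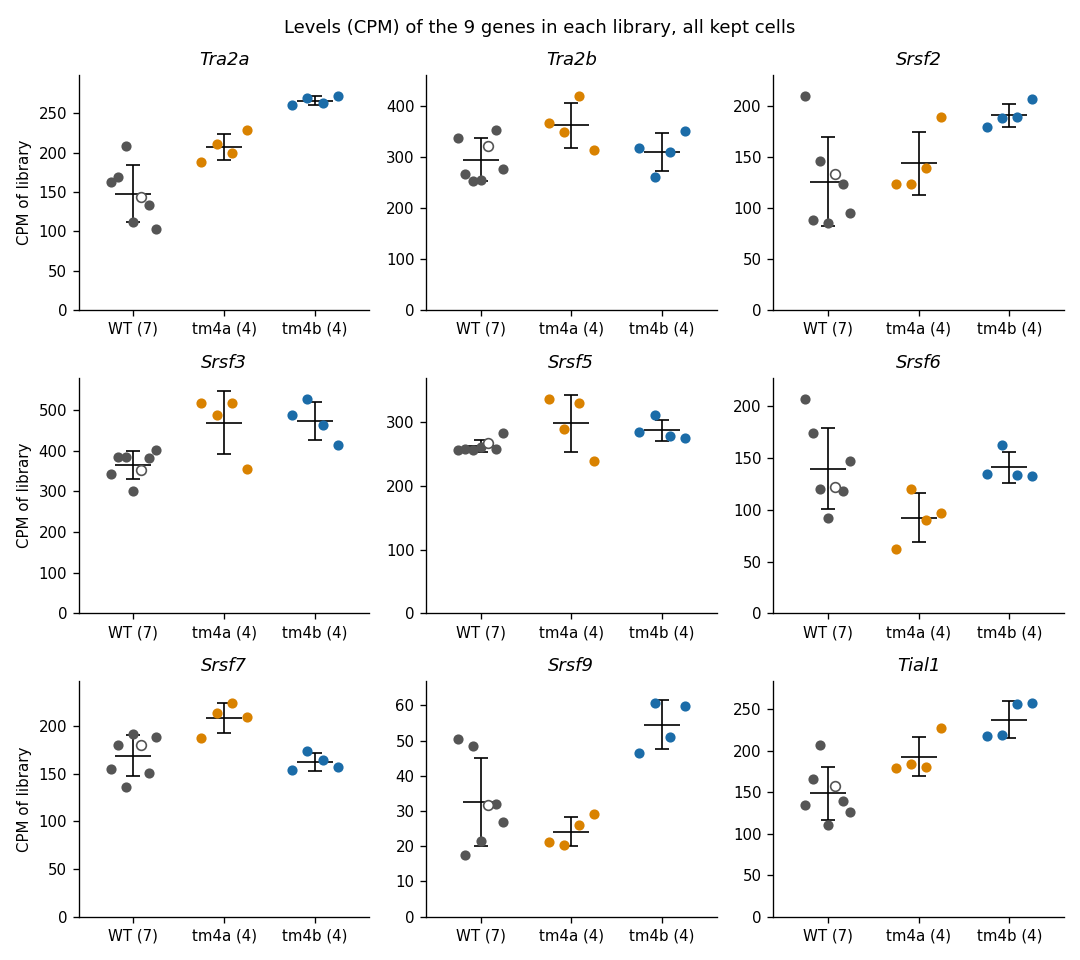
Level of each of the 9 genes (CPM of all kept cells, y axis from 0) in 7 WT, 4 tm4a and 4 tm4b libraries; each point is a library, the open point is WT replicate 5, and bars give the mean ± SD. The mean of Tra2a is lowest in WT (148), between in tm4a (207) and highest in tm4b libraries (266), with WT replicate 3 (208) above 2 tm4a libraries, while the Srsf9 levels of tm4a libraries (20.2 to 29.0) and tm4b libraries (46.6 to 60.8) sit apart and WT spans both.

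By edgeR's quasi-likelihood test with Benjamini-Hochberg adjustment at 0.05 (the rule for a call throughout), 1 member was called, Tra2a, where 0.208% of 13445 genes were called. Since the members were picked on this contrast, nothing is read from that count. The log2 fold change lay above 0 for 8 of 9 members, with a median of 0.24, and for 45.5% of all genes, whose median was -0.02. The call of Tra2a was kept in 5 of 15 fits that left out a library (without WT replicate 1 or 3, or KO replicate 1, 2 or 3) and lost without any of the other 10, while its fold change stayed between 0.60 and 0.75. On the shared flow cell, WT replicate 5 had 144 CPM of Tra2a and 8 of 8 KO libraries lay above it, and the same held for Srsf3 (353 CPM) and Tial1 (157 CPM). For Srsf5 7 of 8 KO libraries lay above WT replicate 5, for Srsf2 6 of 8, and for Tra2b, Srsf6, Srsf7 and Srsf9 4 of 8. These counts rest on a single WT library, and the share of all genes with such counts was not worked out. Nothing is read from them either.

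Over the cell classes, Tra2a had a log2 fold change above 0 in 9 of 9. It was 0.83 (SE 0.14) in endocardial-like cells, 0.76 (SE 0.16) in valve interstitial-like cells, 0.73 (SE 0.17) in valve endothelial-like cells and 0.71 (SE 0.15) in mural-like cells. It was 0.70 (SE 0.15) in fibroblast-like and 0.57 (SE 0.12) in cardiomyocyte-like cells, and lowest in macrophage-like cells at 0.39 (SE 0.20). In valve interstitial-like cells, which build the valve matrix, WT libraries had 144 CPM at the lowest, 224 at the median and 283 at the highest. The tm4a libraries had 253, 344, 298 and 347 CPM there and the tm4b libraries 415, 353, 419 and 507 CPM, so KO replicate 1 alone lay within the WT range. With the flow cell as a covariate, which rests on WT replicate 5 (150.4 CPM), the fold change in this class was 1.27. In mural-like cells the groups did not overlap, with 128 to 205 CPM in WT and 217 to 351 CPM in KO libraries, where 0.132% of genes were higher without overlap. KO replicate 4, at 257 CPM there, rested on 6 UMIs of Tra2a from 16 cells, so its place above the WT range is uncertain.

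Tial1 was likewise above 0 in 9 of 9 classes, from 0.34 (SE 0.17) in epicardial-like to 0.65 (SE 0.12) in valve interstitial-like cells. In the latter the groups did not overlap: WT libraries had 147 to 237 CPM and KO libraries 273 to 347 CPM, and 0.182% of genes were higher without overlap. Srsf2 and Srsf3 were above 0 in 9 of 9 classes, up to 0.68 (SE 0.18) and 0.50 (SE 0.12), both in endocardial-like cells. At the low end were 0.14 for Srsf2 in mural-like and 0.10 for Srsf3 in epicardial-like cells. Srsf6 was below 0 in 9 of 9, from -0.026 in endocardial-like to -0.66 (SE 0.22) in vascular endothelial-like cells. The classes come from the same libraries, so such counts of classes are not counts of independent results. Srsf7 split, with 5 classes above 0 and 4 below. Members called were Tra2a and Tial1 in valve interstitial-like cells (0.351% of genes called) and in endocardial-like cells (0.264%), and Tra2a in cardiomyocyte-like (1.25%) and fibroblast-like cells (0.164%). With the flow cell as a covariate 0 members were called in any of these 4 classes. With single libraries left out, Tra2a was called in 15 of 15 fits in endocardial-like, 8 in cardiomyocyte-like, 6 in valve interstitial-like and 4 in fibroblast-like cells, and Tial1 in 15 in valve interstitial-like and 4 in endocardial-like cells. In the other 5 classes 0 members were called by edgeR, where the share of all genes called was 0% in vascular endothelial-like, 0.0215% in valve endothelial-like, 0.555% in epicardial-like, 0.0164% in mural-like and 0.0332% in macrophage-like cells. At an unadjusted p under 0.05 there were 4 members in vascular endothelial-like cells (9.73% of genes), 2 in valve endothelial-like (10.1%), 3 in epicardial-like (11.7%), 2 in mural-like (9.73%) and 3 in macrophage-like cells (9.03%).

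**Figure D2:**
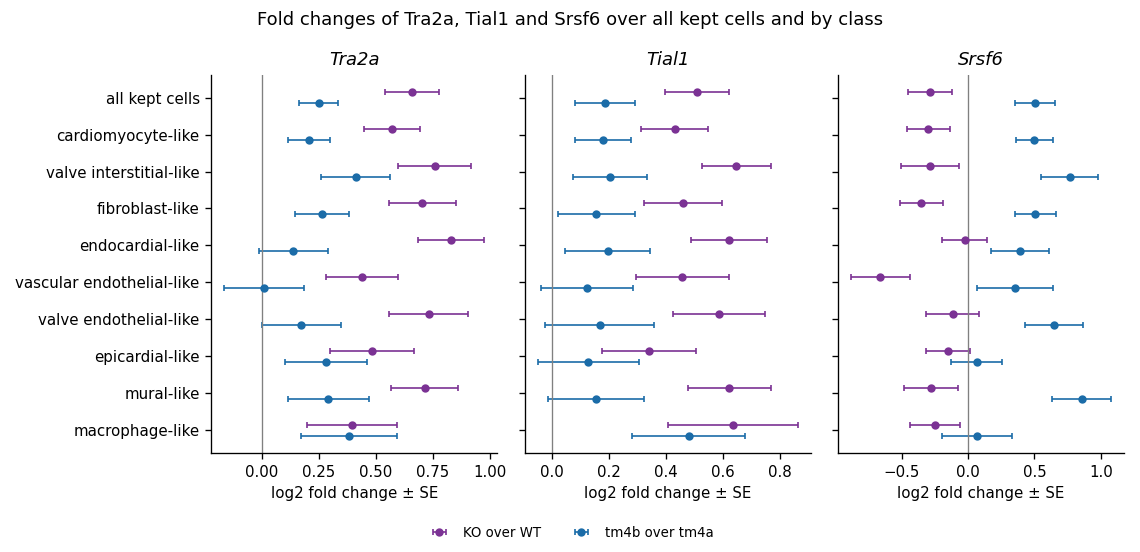
Log2 fold change ± SE (x axis) of Tra2a, Tial1 and Srsf6 over all kept cells and in 9 classes (y axis), for KO over WT (8 against 7 libraries, purple) and tm4b over tm4a (4 against 4, blue). Tra2a and Tial1 lie above 0 in both comparisons, and Srsf6 lies below 0 for KO over WT (down to -0.66) and above 0 for tm4b over tm4a (up to 0.86); the comparisons share the KO libraries.

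The other splicing genes gave 0 calls of 127 between KO and WT by edgeR. At an unadjusted p under 0.05 there were 32, or 25.2% of the list against 15.9% of all genes, and 66 of 127 had a fold change above 0. DESeq2 called 5 of the list, or 3.94% against 3.18% of all genes, named here after their values were seen: Thrap3 (log2 fold change 0.37, adjusted p = 0.00218), Hnrnph1 (0.55, 0.0369), Luc7l (0.19, 0.0453), Tia1 (0.38, 0.0459) and Syncrip (0.24, 0.0471). Tia1 is the paralogue of Tial1. By list, the median log2 fold change was 0.19 for 20 SR-related and RS-rich proteins (15 above 0) and 0.18 for 27 genes of the hnRNP and PTB family (17 above 0). It was 0.18 for the 5 other SR family genes (4 above 0), -0.00023 for 26 core spliceosome genes (13 above 0), -0.00082 for 17 RNA-binding relatives of Tial1 (8 above 0) and -0.04 for 10 SR protein kinases and importer genes (3 above 0). It was -0.07 for 12 muscle and heart splicing regulators (3 above 0) and -0.07 for 10 genes of nonsense-mediated decay (3 above 0). Without WT replicate 3, edgeR called 6 of the 127, or 4.72% against 2.98% of all genes.

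The knockout alleles were compared next, within the KO libraries. Srsf9 was at 21.1, 20.2, 26.1 and 29.0 CPM in the tm4a libraries and at 46.6, 60.8, 50.9 and 60.0 CPM in the tm4b libraries. The alleles did not overlap, and the log2 fold change of tm4b over tm4a was 1.07 (SE 0.13). WT libraries spanned both, with 48.3 and 50.3 CPM in replicates 3 and 1 and 17.6 to 31.9 CPM in the other 5. Srsf7, an export adaptor like Srsf3, was the reverse: it was at 187, 214, 225 and 209 CPM in tm4a and at 153, 174, 165 and 157 CPM in tm4b libraries, with no overlap and a log2 fold change of -0.47 (SE 0.08). Srsf6 was at 62.2, 119.5, 90.0 and 96.6 CPM in tm4a and at 134, 163, 133 and 133 CPM in tm4b libraries (0.51, SE 0.15), again with no overlap. Tra2a, with the values given above, was higher in tm4b without overlap at a log2 fold change of 0.25 (SE 0.08).

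The remaining members overlapped between the alleles. Tra2b was at 367, 349, 419 and 313 CPM in tm4a and at 318, 261, 310.2 and 352 CPM in tm4b libraries (-0.33, SE 0.11). Srsf2 was at 123.5, 123.4, 138 and 189 CPM in tm4a and at 179, 188, 189 and 206 CPM in tm4b libraries (0.29, SE 0.13), where KO replicate 4 was the tm4a library that reached the tm4b range. The log2 fold change was 0.18 (SE 0.10) for Tial1, -0.17 (SE 0.11) for Srsf5 and -0.10 (SE 0.13) for Srsf3.

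**Figure D3:**
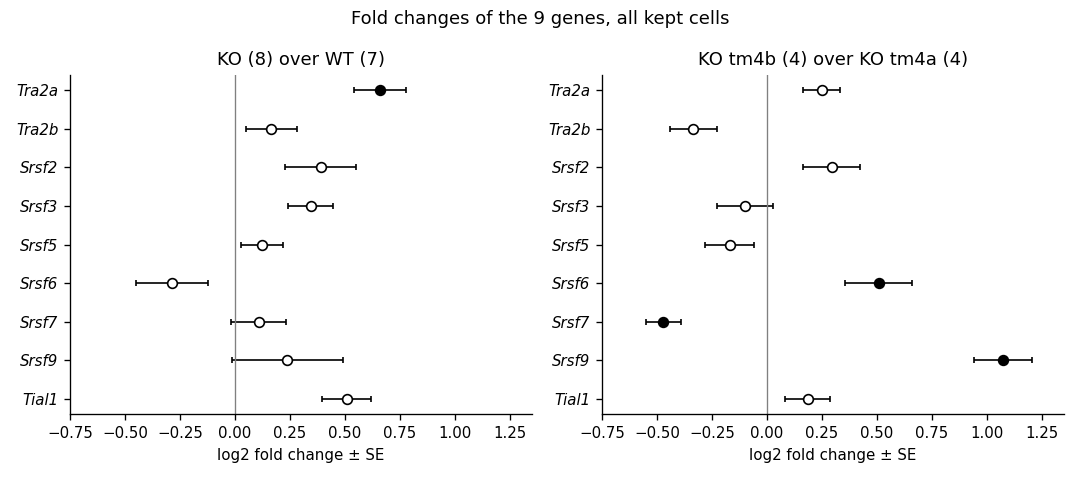
Log2 fold change ± SE (x axis) of the 9 genes over all kept cells for KO over WT (left, 8 against 7 libraries) and tm4b over tm4a (right, 4 against 4); filled points are called at an adjusted p under 0.05 by edgeR. Tra2a is the filled point on the left (0.66), and Srsf6 (0.51), Srsf7 (-0.47) and Srsf9 (1.07) are those on the right.

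Called members were Srsf6 and Srsf9, higher, and Srsf7, lower, where 15.3% of 13531 genes were called, 7.92% higher and 7.39% lower. Of all genes 17.6% were higher and 5.44% lower without overlap. These counts are again descriptions, since this contrast was part of the choice. Srsf7 and Srsf9 were called in 8 of 8 fits that left out a library. Srsf6 was called in 1 of 8, without KO replicate 2. Without KO replicate 4 the call of Srsf6 was lost and 6 members were called, Tra2a, Tra2b, Srsf2, Srsf7, Srsf9 and Tial1.

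By class, Srsf9 was higher in tm4b in 9 of 9 classes without overlap, from 0.78 (SE 0.27) in epicardial-like to 1.24 (SE 0.30) in valve endothelial-like cells. The share of all genes higher without overlap was 14.9% in cardiomyocyte-like, 10.2% in fibroblast-like, 7.99% in valve interstitial-like, 7.59% in epicardial-like, 6.6% in mural-like, 6.05% in vascular endothelial-like, 5.75% in endocardial-like, 4.97% in valve endothelial-like and 4.11% in macrophage-like cells. In mural-like cells KO replicate 4 had 0 UMIs of Srsf9 among 23356, from 16 cells, which allows up to 128 CPM, so the mural-like value of that library says little. Other small classes also rested on few UMIs of Srsf9. The tm4a libraries had 2, 8, 4 and 7 in macrophage-like and 13, 4, 7 and 7 in valve endothelial-like cells. The highest tm4a and lowest tm4b library lay close in vascular endothelial-like (57.2 and 62.0 CPM) and cardiomyocyte-like cells (14.8 and 15.8 CPM). Srsf7 was lower in tm4b in 9 of 9 classes, from -0.17 (SE 0.20) in vascular endothelial-like to -0.56 (SE 0.09) in cardiomyocyte-like cells. Srsf6 was higher in 9 of 9, from 0.066 in macrophage-like to 0.86 (SE 0.22) in mural-like cells. Srsf2 was higher in 9 of 9, from 0.061 in endocardial-like to 0.59 (SE 0.19) in mural-like cells. Tra2a was higher in 9 of 9, from 0.01 (SE 0.17) in vascular endothelial-like to 0.41 (SE 0.15) in valve interstitial-like cells. Called members were 4 in fibroblast-like cells (Srsf2 and Srsf9 higher, Tra2b and Srsf7 lower), where 8.71% of genes were called, and 3 in cardiomyocyte-like cells (Srsf6 and Srsf9 higher, Srsf7 lower), where 11.9% were. Srsf9 alone was called in valve interstitial-like (3.08%) and endocardial-like cells (0.606%). With single libraries left out, the call of Srsf9 was kept in 8 of 8 fits in fibroblast-like, 4 in cardiomyocyte-like, 3 in endocardial-like and 1 in valve interstitial-like cells, and that of Srsf7 in 8 in cardiomyocyte-like and 3 in fibroblast-like cells. Tra2b was called in 4 of 8 and Srsf2 in 1 of 8 in fibroblast-like cells, and Srsf6 in 3 of 8 in cardiomyocyte-like cells. All genes called went from 216 to 49 in valve interstitial-like and from 52 to 4 in endocardial-like cells without KO replicate 7. In the other 5 classes 0 members were called by edgeR, where 1.63% of genes were called in vascular endothelial-like, 0.619% in valve endothelial-like, 2.91% in epicardial-like, 0.334% in mural-like and 0% in macrophage-like cells. At an unadjusted p under 0.05 there were 4 members in vascular endothelial-like cells (16.6% of genes), 5 in valve endothelial-like (15%), 1 in epicardial-like (18.6%), 4 in mural-like (16.9%) and 3 in macrophage-like cells (12.1%).

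**Figure D4:**
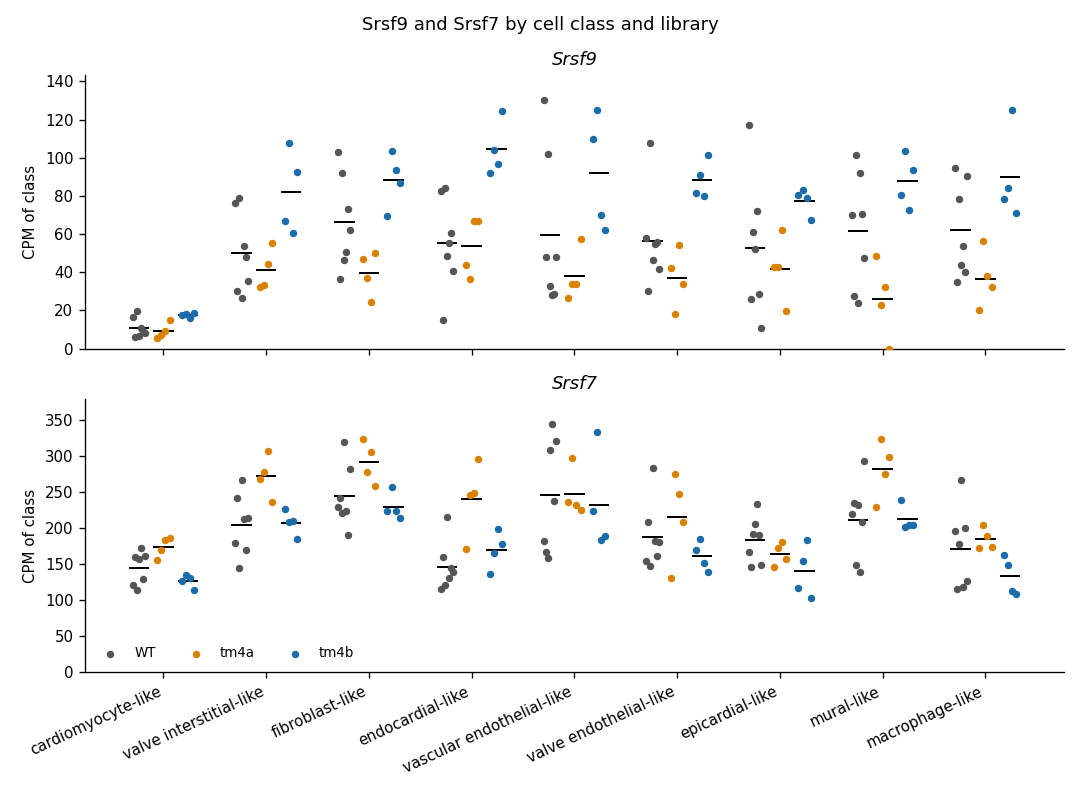
Level of Srsf9 (top) and Srsf7 (bottom) in each library (points, CPM of the class, y axes from 0) and mean (bars) for WT (grey, 7), tm4a (orange, 4) and tm4b (blue, 4) in 9 classes. Srsf9 in cardiomyocyte-like cells stays under 20 CPM in every library, and in each class the tm4b points lie above the tm4a points.

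Of the 127 other splicing genes, 34 passed the test between the alleles, or 26.8% of the list against 15.3% of all genes. Of these, 24 rose in tm4b relative to tm4a (18.9% of the list against 7.92%) and 10 fell (7.87% against 7.39%). Since the lists were chosen with earlier results of these data known, such shares are descriptions. The core spliceosome list was the one with calls in a single direction downwards: 7 of 26 fell and 0 rose, with a median log2 fold change of -0.20. U2af1, the small subunit of the factor that reads the 3′ splice site, fell by 0.52 on the log2 scale (SE 0.08, adjusted p = 0.00454 by edgeR), with a level of 191 ± 13.8 CPM in tm4a and 144 ± 6.95 in tm4b libraries (SD, n = 4 each). The Sm ring proteins of the spliceosomal snRNPs followed. Snrpe fell by 0.48 (SE 0.08, adjusted p = 0.00529), with 437 to 456 CPM in tm4a libraries and 336 to 365 CPM in tm4b. Snrpb fell by 0.47 (SE 0.08, adjusted p = 0.00578), Snrpd1 by 0.37 (adjusted p = 0.0148) and Snrpd2 by 0.40 (adjusted p = 0.0154). Snrpd3 and Sf3b5 completed the 7, each called in 1 of 8 fits that left out a library. The list kept 3 of its 7 calls without KO replicate 7 (U2af1, Snrpe and Snrpb) and had 4 without KO replicate 8. WT libraries averaged 167 CPM of U2af1 (99.2 to 253), 425 of Snrpe (290 to 512) and 466 of Snrpb (362 to 550). For U2af1, Snrpe and Snrpb the WT range took in the levels of both alleles. For Snrpd3 it did not: the tm4a libraries had 507 to 542 CPM and the highest WT library 506. Snrpd1 in KO replicate 4 (365.5 CPM) lay just above the highest WT library (365.3). Snrpd2 in KO replicate 8 (238.8 CPM) lay just below the lowest (241.4).

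In the hnRNP and PTB family, 7 of 27 rose and 2 fell. Among those that rose, Hnrnpdl was called in 0 and Raly in 1 of 8 fits that left out a library. Hnrnph1, which binds G-rich RNA, rose by 0.62 (SE 0.10, adjusted p = 0.00448), at 289 ± 26.6 CPM in tm4a and 484 ± 21.2 in tm4b libraries, beside a WT mean of 258 CPM. Hnrnpu, a nuclear scaffold protein, rose by 0.66 (SE 0.11, adjusted p = 0.00454), where tm4a libraries had 324 ± 51.3 and tm4b libraries 552 ± 30.5 CPM, beside a WT mean of 502 CPM. The WT mean thus lay under the mean of either allele for Hnrnph1 and between them for Hnrnpu. Single WT libraries ranged from 159 to 371 CPM of Hnrnph1 and from 338 to 680 CPM of Hnrnpu. Hnrnpd, which binds AU-rich mRNAs, rose by 0.71 (SE 0.14, adjusted p = 0.00868) and Pcbp2, which binds C-rich RNA, by 0.46 (SE 0.09, adjusted p = 0.0103). Hnrnpk fell by 0.46 (SE 0.09, adjusted p = 0.0111) and Hnrnpf by 0.34 (SE 0.08, adjusted p = 0.0140). By class, Hnrnph1 was called in 7 of 9 and Hnrnpu in 6 of 9, all higher.

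Among other groups, Khdrbs1 (Sam68), a signal-responsive splicing regulator, had the smallest p of the list: it rose by 0.75 (SE 0.11, adjusted p = 0.00283), with tm4a libraries at 94.8 to 119.99 CPM and tm4b libraries at 179 to 201 CPM. Mbnl1, a regulator of muscle splicing, rose by 0.36 (adjusted p = 0.0165), and of the 12 muscle and heart regulators, Khdrbs1 among them, 3 rose and 0 fell, with 1 called without KO replicate 7. Of the 17 RNA-binding relatives of Tial1 3 rose and 0 fell, and 1 was called without KO replicate 2, 3, 6 or 7. Tia1, among the 3, was called in 3 of 8 fits that left out a library. Of the 5 other SR family genes, Srsf4 rose by 0.45 (adjusted p = 0.0137) and Srsf11 by 0.40 (adjusted p = 0.0141), and 0 fell. Of 20 SR-related and RS-rich proteins 6 rose and 1 fell, and 3 were called higher without KO replicate 5 or 7. Ccnl2, a cyclin partner of splicing-linked kinases, rose by 0.46 (adjusted p = 0.00774), Luc7l2 of the U1 snRNP by 0.43 (adjusted p = 0.00952) and Scaf8 by 0.55 (adjusted p = 0.0113). Smg1, the kinase that phosphorylates Upf1 in nonsense-mediated decay, rose by 0.53 (SE 0.08, adjusted p = 0.00454), and 2 of 10 genes of that list rose and 0 fell. Of 10 SR protein kinases and importer genes 1 rose and 0 fell. Of the 34 genes, 18 were called in each of the 8 fits that left out a library, and without KO replicate 7 only 19 of the list were called.

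Among the 9 compared classes, levels over the 15 libraries came out lowest in cardiomyocyte-like cells for 7 of the 9 members. The exceptions were Srsf2 and Srsf3, with their lowest mean in epicardial-like cells. Erythroid-like cells, with a median of 63.8% haemoglobin UMIs, were not among the compared classes. Their mean over 9 libraries was lower still for each member, at 108 CPM of Tra2a and 9.03 ± 15.2 CPM of Srsf9 (SD). The classes were made from these cells' own transcriptomes, so these are descriptions. Srsf9 stood out, at 12.2 ± 5.17 CPM (SD, n = 15) in cardiomyocyte-like cells against 56.1 to 67.9 CPM in the other 8 classes. The median difference of the other classes from cardiomyocyte-like cells was 1.58 on the scale log2(CPM + 10), the 96.4th percentile of 9226 genes with a mean of at least 10 CPM. Over those genes the median was 0.20 and 63.0% lay above 0. Next came Srsf5 at 0.69 and Tial1 at 0.67, then Tra2b, Srsf6 and Tra2a at 0.53, 0.53 and 0.52, Srsf7 at 0.43, Srsf2 at 0.27 and Srsf3 at 0.21. Outside the compared classes, Srsf9 was also low in the 2 unnamed clusters, at 12.6 ± 8.77 and 30.1 ± 23.4 CPM. It was 27.1 ± 38.5 CPM in other leukocyte or platelet-like cells (n = 6). In neural crest, glial or neuronal-like cells it was 53.8 ± 38.5 CPM (n = 9).

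Tra2a was highest in valve interstitial-like cells, at 296 ± 104 CPM. It was 268 ± 92.3 in endocardial-like, 236 ± 75.8 in valve endothelial-like, 235.2 ± 53.8 in vascular endothelial-like and 235.0 ± 73.3 in mural-like cells. It was 214 ± 68.3 in fibroblast-like, 189 ± 58.6 in epicardial-like, 161 ± 45.3 in macrophage-like and 159 ± 42.9 in cardiomyocyte-like cells. For neighbours, the classes were ordered by their mean on log2(CPM + 10), which put vascular endothelial-like and mural-like cells before valve endothelial-like cells. In that order no class differed from its neighbour in Tra2a by more than 1 SD of the paired difference over libraries. Among the 72 neighbouring pairs of all 9 members, 3 did: Srsf9 between mural-like and cardiomyocyte-like cells, Srsf5 between epicardial-like (313 ± 49.2) and cardiomyocyte-like cells (215 ± 24.2), and Tial1 between fibroblast-like (218 ± 55.6) and macrophage-like cells (169.8 ± 64.4).

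Within cardiomyocyte-like cells, a mitotic cluster of 3013 cells was set beside the rest of the class. Srsf3 was 0.62 ± 0.10 higher there on the log2(CPM + 10) scale (mean ± SD, n = 15) and higher in 15 of 15 libraries, at 523 against 337 CPM. Srsf7 was 0.59 ± 0.09 higher, Srsf2 0.53 ± 0.14, Tra2b 0.50 ± 0.12 and Tra2a 0.46 ± 0.18, each in 15 of 15 libraries. Srsf5 (-0.07 ± 0.14) and Srsf9 (-0.06 ± 0.24) were higher in only 5 and 6 of 15 libraries. An unnamed cluster of 2318 cells, with Cenpa, Ccnb2, Myl2 and Myl3 among its leading genes, was not part of this comparison. Its means were 147 CPM of Tra2a, 145 of Srsf7, 140 of Srsf2 and 443 of Srsf3. The rest of the cardiomyocyte-like class had 145, 131, 122 and 337 CPM. That rest also held clusters with Myl7 among their leading genes. A mitotic fibroblast-like cluster of 2615 cells was likewise set beside the other fibroblast-like cells. Srsf3 (0.62 ± 0.13), Srsf7 (0.45 ± 0.20) and Tial1 (0.24 ± 0.15) were higher in the mitotic cluster in 15 of 15 libraries, and Srsf5 (-0.09 ± 0.15) in 5 of 15. The mitotic clusters were also deep: their median was 3828 UMIs per cell against 673.5 to 3386 in the other cardiomyocyte-like clusters, and 2349 against 1653 in fibroblast-like cells. The part of depth in these differences was not tested. Nor was the share of all genes higher in the mitotic clusters worked out, so the differences do not set the members apart from other genes.

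Co-variation was described in the 7 WT libraries alone, on log2(CPM + 1), because the KO libraries separate by allele into clusters of 4. The 36 pairs of members share libraries, litters and depth, and no p is given. Tra2a and Tial1 had Pearson's r = 0.88 and Spearman's rho = 0.86, and r = 0.78 over the 5 libraries left without the 2 farthest on Tra2a. Srsf2 and Srsf9 had r = 0.92, rho = 0.93 and r = 0.91 without the 2 farthest on Srsf2. Srsf7 and Srsf9 had r = -0.79, rho = -0.79 and r = -0.80 without the 2 farthest on Srsf7. The r of Tra2a with Srsf7, -0.73, came to -0.33 without the 2 farthest and thus rested on WT replicates 3 and 7. Of the 36 pairs 20 had r above 0, and 7 changed sign without the 2 farthest libraries. Over the same libraries Tra2a had r = 0.51 with the median UMIs per cell and r = -0.39 with the immediate early and heat shock share, and their part was not tested.

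**Figure D5:**
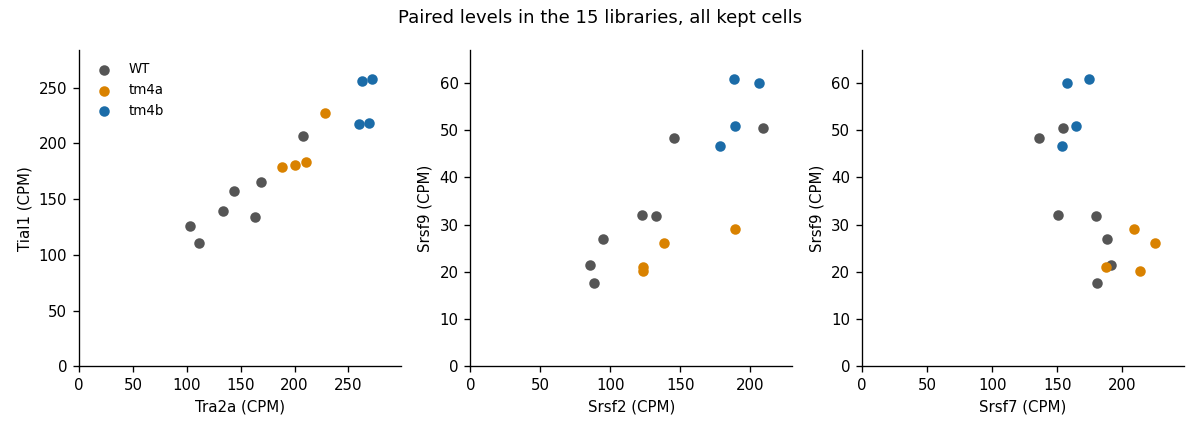
Levels (CPM of all kept cells, axes from 0) of Tra2a against Tial1, Srsf2 against Srsf9 and Srsf7 against Srsf9 in WT (grey, 7), tm4a (orange, 4) and tm4b (blue, 4) libraries, each point a library. Libraries with more Tra2a have more Tial1 for the most part, with WT replicate 3 (208 and 206 CPM) among the tm4a libraries and KO replicate 4 of tm4a (228 CPM of Tial1) above 2 tm4b libraries, and in the panels with Srsf9 the tm4b libraries lie with the 2 WT libraries at 48.3 and 50.3 CPM.

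The genes whose pattern was most like that of Tra2a were taken from 3699 genes with a mean of at least 50 CPM. Over the 15 libraries, after the genotype means were subtracted, these were Meis1 (r = 0.95), a homeobox transcription factor, Iars2 (0.95), the mitochondrial isoleucyl-tRNA synthetase, Sfrs18 (0.94), an RS-rich protein, Dhx40 (0.94), an RNA helicase-like protein, and Tlk2 (0.94), a chromatin kinase. The difference between the alleles was not subtracted and remains in this ranking. In the WT libraries alone r was 0.97 for Meis1, Iars2 and Sfrs18, 0.98 for Dhx40 and 0.93 for Tlk2. Meis1, for example, was at 45.6 CPM in WT replicate 7 and 92.0 in WT replicate 3, and at 60.1 to 65.7 CPM in tm4a and 86.8 to 98.9 CPM in tm4b libraries. Tial1 ranked 94th (r = 0.87), and Srsf7 lay far down at r = -0.72. Over the 9 class means the most alike were Cnot2 (r = 0.96), of the deadenylase complex, Acin1 (0.95), a partner of the exon junction complex, Thoc1 (0.95), of the mRNA export complex THO, Zmym5 (0.94) and Cep170 (0.94), a centrosome protein. Tial1 ranked 11th there (r = 0.92) and Tra2b 50th (0.89).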

How the data were processed

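The authors deposited UMI counts for each gene in each cell barcode, raw and as whole numbers. The submitters' processing notes name bcl2fastq 2.17, Seurat 2.1 and mm10, and no aligner is named in the labels. Each library's barcodes started at 251 detected genes and reached at most 10.0% mitochondrial UMIs. Cells with at least 300 genes were kept (50899 of 55152 barcodes), and a 30% mitochondrial limit removed 0. Scrublet (scanpy 1.11.5) marked 124 cells (0.244%), which were removed, 63 of them in WT replicate 6. At so low a rate most doublets were likely not recognised, so doublets are taken to remain among the cells. Clusters came from 2000 variable genes, 30 principal components and the Leiden algorithm (leidenalg 0.10.2, resolution 1.0), and were named "X-like" from marker lists. UMIs were summed per library and class (at least 10 cells) and tested with edgeR 4.0.16 in R 4.3.3 (quasi-likelihood, TMM, filterByExpr; Benjamini-Hochberg over all genes tested), which was also run on simulated counts. DESeq2 1.42.0, other filters, left-out libraries, flow cell, litter and replicate block were alternatives. The members and lists were chosen with earlier results of these data known. List genes past the threshold are named, at most 20 a comparison by smallest p, with the 5 genes most like Tra2a. Further list genes are named where their calls were lost with libraries left out. A named list gene is not reported here. Replicate numbers of WT and KO did not pair the libraries. The title numbers WT replicate 4, whose description says 3.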

Additional observations from a re-analysis of the deposited data

Results flagged for a closer look

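Each member's level was checked in 36 groups of libraries (WT, KO, tm4a and tm4b for each gene), and in 3 of them a library lay far from the others; chance flags about 1 in 20 groups. Srsf5 was at 283 CPM in WT replicate 7, against 256 to 267 CPM in the other 6 WT libraries. Srsf6 was at 163 CPM in KO replicate 6, against 133 to 134 CPM in the other 3 tm4b libraries. Tial1 was at 228 CPM in KO replicate 4, against 179 to 184 CPM in the other 3 tm4a libraries.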

How the results depend on the processing

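The fold changes of the 9 members over all kept cells kept their sign under each alternative run, in both comparisons: DESeq2, its size factors, no filter on low counts, called doublets kept, the 5% highest doublet scores removed, at least 500 genes, each library left out, and for KO over WT the replicate block, the flow cell, sums per litter and, chosen after seeing the data, WT replicates 1 to 4 left out. Each moved by less than 1 SD between libraries. The Tra2a fold change of KO over WT lay between 0.60 and 0.83. Counts of calls moved more. Between KO and WT, members called were 3 by DESeq2 (Tra2a, Srsf3 and Tial1), 0 with the replicate block, the flow cell or litter sums, 2 without WT replicates 1 to 4, and 0 to 2 with single libraries left out. List genes called were 5 by DESeq2, 9 without WT replicates 1 to 4, and 0 to 6 with single libraries left out. All genes called were 28, against 428 by DESeq2, 17 without the filter, 401 without WT replicate 3, 98 without WT replicate 1, 5 to 14 without any other library, 976 without WT replicates 1 to 4, 2 with the block or litter sums, and 6 with the flow cell. Between the alleles, members called were 5 by DESeq2 and 2 to 6 with single libraries left out, and list genes 19 to 36; all genes called were 2071, against 746 without KO replicate 7, 1076 without KO replicate 8 and 1248 without KO replicate 6. With the flow cell, all genes called between KO and WT were 0 in fibroblast-like, 3 in cardiomyocyte-like, 3 in valve interstitial-like and 9 in endocardial-like cells. In valve interstitial-like cells the flow cell as a covariate moved the Tra2a fold change of KO over WT from 0.76 to 1.27. The cause was not tested. Replicate numbers did not pair: same-numbered libraries correlated at -0.31 to 0.13, and with the replicate block Tra2a stayed at 0.66. Class sums of few cells, such as 16 mural-like cells in KO replicate 4, limit the values by depth.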
